A study of Mus musculus with 16 samples.

Results

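Csf1, Il34, Tnfsf11 and Tnfrsf11b encode the secreted and membrane factors by which stromal cells set the number of osteoclasts, the cells that resorb bone. They were taken from the table by gene symbol, and are 4 of its 56941 genes. All 4 passed the filter on low counts and were tested. Their levels were followed in mGF, primary fibroblasts of the murine gum, grown from explants of the gingiva around the maxillary second molar of wild-type C57Bl6 mice aged 3 to 6 months and used at passages 2 to 8. Bulk RNA of 16 libraries was sequenced, 4 for each of 4 conditions. BSA (control) cells received the albumin vehicle alone, IL-1β cells the inflammatory cytokine at 1 ng/mL, palmitate cells the saturated fatty acid complexed to BSA at 200 μM, and palmitate + IL-1β cells both agents. The question was how metabolic and inflammatory stress change these cells, alone and combined. The labels do not say that the 4 libraries of a condition came from separate cultures or mice, so p-values measure the spread between these libraries, which may be technical.

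Osteoclasts form from myeloid precursors that need signals through a pair of receptors. Csf1 (M-CSF) and Il34 are alternative ligands of Csf1r, the receptor that keeps the precursors alive and dividing, and Tnfsf11 (RANKL) activates Tnfrsf11a (RANK), which drives them to become osteoclasts. Tnfrsf11b (osteoprotegerin, OPG) is a soluble decoy that binds RANKL and keeps it from RANK, and in the gum the balance of RANKL and OPG is known for its place in the loss of alveolar bone in periodontitis.

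The libraries held 21234789 to 92752515 counts on genes. Palmitate replicate 10 was the deepest and the other 15 held at most 35329711. Levels in CPM (counts per 1000000) are on TMM-scaled library sizes. The count of 3 that a library at 0 still allows came to 0.0323 to 0.141 per 1000000 counts on genes, without that scaling. Such limits cover counting error only. The 95% intervals of fold changes given below come from the fit and include the spread between the libraries of a condition. The 10 fibroblast marker genes were all tested and summed to 46330 to 57800 CPM per library. Fn1 at 15640 to 21120 and Col1a1 at 13860 to 15370 CPM per condition made up most of it, while Lum was low at 1.12 to 1.90 CPM. Mural, endothelial, epithelial and lymphocyte markers summed to 3.3 to 5.31, 1.42 to 2.25, 0.164 to 0.727 and 0 to 0.248 CPM per library. Of 9 myeloid and leukocyte markers, Tyrobp was at 0 in every library and Ptprc at 7 counts or fewer, and the list summed to 2.65 to 4.52 CPM. Most of that sum came from Csf1r at 1.25 to 1.82, Cd68 at 0.930 to 1.32 and Lyz2 at 0.547 to 0.922 CPM per condition. The 10 osteoclast markers summed to 239 to 281 CPM, mostly from Ctsk at 147 to 157, Nfatc1 at 37.2 to 62.3 and Itgb3 at 41.2 to 49.0 CPM per condition, while Calcr was at 0 in every library and Dcstamp and Ocstamp were at 3 counts or fewer. Of the 6 tested, Mmp9 rose with palmitate by 1.30 (adjusted p = 1.1e-12), and Atp6v0d2 and Nfatc1 fell by 1.21 (adjusted p = 8.8e-04) and 0.35 (adjusted p = 6.1e-06). Of all genes tested, 37.3% were called in that comparison. With IL-1β, Mmp9 rose by 0.345 (adjusted p = 0.02) and Nfatc1 by 0.233 (adjusted p = 0.0031), where 10.1% of all genes were called higher. The rest of the 6 were not called with IL-1β. In bulk RNA fewer cells of a type and less RNA per cell cannot be told apart.

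Csf1 rose with each agent, and the 4 conditions lay in the order BSA, IL-1β, palmitate, palmitate + IL-1β with no overlap between any of them. The gene (ENSMUSG00000014599.11) lies on the minus strand of chromosome 3 at 107648364 to 107667806 of GRCm39, with 11 annotated transcripts, 9 of them coding. Gm40121 spans all of Csf1 on the opposite strand and was not among the genes counted. The sources disagree on whether the kit marked strand, so reads of Gm40121 may be part of the Csf1 counts. The promoter of Csf1 is shown because Csf1 moved furthest of the 4 in CPM. The 250 bases before the transcription start were read from RefSeq's table on GRCm38.p6, chr3:107760470-107760719, minus strand, and the capitals mark the 1 match to the NF-κB consensus, 154 to 145 bases before the start:
Csf1 promoter: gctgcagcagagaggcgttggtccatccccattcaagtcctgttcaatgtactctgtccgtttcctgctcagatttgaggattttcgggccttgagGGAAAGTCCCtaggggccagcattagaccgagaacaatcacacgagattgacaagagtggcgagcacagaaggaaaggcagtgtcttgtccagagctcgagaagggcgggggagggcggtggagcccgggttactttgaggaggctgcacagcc
On the opposite strand the match reads GGGACTTTCC. The consensus was searched on both strands and occurs in 7.25% of the 32841 promoter windows of that table. The AP-1 motif TGANTCA, found in 6.75% of the windows, was not among these letters. The corresponding window of Tnfsf11, chr14:78308044-78308293 on the minus strand, is given for comparison and held neither motif, while Il34 and Tnfrsf11b were not in that table:
Tnfsf11 promoter: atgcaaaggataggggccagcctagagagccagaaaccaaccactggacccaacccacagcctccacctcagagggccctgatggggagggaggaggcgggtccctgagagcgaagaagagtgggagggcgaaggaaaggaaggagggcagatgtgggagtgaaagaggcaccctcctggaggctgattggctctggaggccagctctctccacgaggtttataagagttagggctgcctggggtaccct
These matches describe letters only and say nothing of binding in these cells.

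In the BSA libraries Csf1 was measured at 240.1, 240.3, 234 and 238 CPM. The IL-1β libraries held 589.5, 601, 635 and 619.6 CPM, and the palmitate libraries 854, 856.5, 857 and 859.9 CPM. The palmitate libraries thus lay within a few CPM of each other and all of them exceeded the IL-1β libraries. With both agents the libraries held 1145, 1184, 1214 and 1132 CPM, above those of either agent alone. The means were 238 ± 2.92, 611 ± 20.2, 857 ± 2.51 and 1169 ± 37.3 CPM (SD, n = 4) for BSA, IL-1β, palmitate and palmitate + IL-1β. Against BSA the log2 fold change was 1.36 (SE 0.039, 2.57-fold) with IL-1β, with an adjusted p of 3.4e-22 (quasi-likelihood test of edgeR, adjusted by Benjamini-Hochberg, as are all adjusted p-values of single genes here). It was 1.85 (SE 0.04, 3.60-fold) with palmitate, adjusted p = 1.6e-26, and 2.30 (SE 0.04, 4.91-fold) with both, adjusted p = 5.4e-29. Palmitate exceeded IL-1β by 0.49 on the log2 scale (adjusted p = 7.8e-12). Adding palmitate to IL-1β raised Csf1 by 0.94 (adjusted p = 9.9e-19), and adding IL-1β to palmitate raised it by 0.45 (adjusted p = 3.9e-10).

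Il34, the second ligand of Csf1r, rose with palmitate and less with IL-1β, at levels far under those of Csf1. The gene (ENSMUSG00000031750.16) lies on the minus strand of chromosome 8 at 111423928 to 111532584, with 9 transcripts, 4 of them coding. The BSA libraries held 0.887, 0.742, 0.648 and 1.22 CPM and the IL-1β libraries 1.35, 1.40, 1.14 and 1.66 CPM, so that BSA replicate 4 overlapped the IL-1β range. The palmitate libraries held 2.91, 2.49, 2.57 and 2.55 CPM and the libraries with both agents 2.43, 2.12, 2.60 and 2.43 CPM, all above every library without palmitate. These levels rest on 17 to 226 counts per library. The means were 0.875 ± 0.252, 1.39 ± 0.213, 2.63 ± 0.192 and 2.40 ± 0.203 CPM (SD, n = 4) in the order BSA, IL-1β, palmitate and both. The rise with palmitate was 1.57 (SE 0.181, 2.96-fold), adjusted p = 1.9e-08, and with both agents 1.45 (SE 0.184, 2.73-fold), adjusted p = 7.9e-08. The rise with IL-1β was 0.65 (SE 0.203, 1.57-fold), adjusted p = 0.028, and it did not pass without a filter on low counts (adjusted p = 0.068), with only the 8 libraries compared in the fit (adjusted p = 0.082), or without BSA replicate 1, 2 or 3 or IL-1β replicate 6 or 8 (adjusted p = 0.054 to 0.104). Palmitate exceeded IL-1β for Il34 by 0.92 (adjusted p = 8.8e-05), and higher with both agents than with IL-1β by 0.80 (adjusted p = 4.9e-04). Adding IL-1β to palmitate gave -0.12 (95% interval -0.44 to 0.20, adjusted p = 0.73), so the order of the upper pair of conditions was within their spread. Vac14 and Mtss2 overlap Il34 on the opposite strand, and the sources disagree on whether the kit marked strand, so their reads may not be fully apart. Mtss2 fell with palmitate by 0.47 on the log2 scale (adjusted p = 9.3e-11), against the direction of Il34, and Vac14 rose by 0.25 (adjusted p = 0.015).

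Tnfsf11, the RANKL gene, was scarce in every condition and was higher with IL-1β and with both agents than with BSA. It lies on the minus strand of chromosome 14 at 78514885 to 78545490 (ENSMUSG00000022015.9), has 1 annotated transcript, and was counted 14 to 85 times per library. The BSA libraries held 0.828, 0.549, 0.610 and 0.489 CPM, and the IL-1β libraries 1.51, 1.33, 0.886 and 1.08 CPM, with no overlap. The palmitate libraries held 1.31, 0.936, 0.734 and 0.944 CPM, of which replicate 11 lay under the highest BSA library. The libraries with both agents were the most spread, at 1.39, 1.16, 0.578 and 1.44 CPM, with replicate 15 inside the BSA range. The means were 0.619 ± 0.148, 1.20 ± 0.276, 0.981 ± 0.240 and 1.14 ± 0.393 CPM (SD, n = 4). IL-1β raised Tnfsf11 by 0.93 on the log2 scale (SE 0.281, 1.90-fold), adjusted p = 0.022, and both agents raised it by 0.86 (SE 0.277, 1.82-fold), adjusted p = 0.011. Palmitate alone gave 0.62 (95% interval 0.05 to 1.20, 1.54-fold), which missed the threshold at an adjusted p of 0.083. The 3 treated conditions were not told apart. Palmitate differed from IL-1β by -0.31 (95% interval -0.84 to 0.23, adjusted p = 0.41), both agents differed from IL-1β by -0.06 (95% interval -0.59 to 0.46, adjusted p = 0.88) and from palmitate by 0.24 (95% interval -0.28 to 0.76, adjusted p = 0.65). At these counts single libraries decided the calls. Without BSA replicate 2 or 4, or IL-1β replicate 5 or 6, the IL-1β rise of 0.80 to 0.87 had adjusted p-values of 0.058 to 0.081. Without BSA replicate 1 the palmitate rise passed at 0.80 (adjusted p = 0.0499), and without palmitate + IL-1β replicate 13 the rise with both agents missed at 0.73 (adjusted p = 0.0501).

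Tnfrsf11b, the OPG decoy, fell with palmitate, whether or not IL-1β was present. The gene (ENSMUSG00000063727.4) lies on the minus strand of chromosome 15 at 54114015 to 54142075, with 2 transcripts, and was counted 967 to 4036 times per library. The BSA libraries held 63.3, 65.0, 59.99 and 67.5 CPM and the IL-1β libraries 59.7, 56.9, 59.9 and 59.5 CPM, which lay next to each other without overlapping. The palmitate libraries held 46.9, 44.4, 42.4 and 47.8 CPM and those with both agents 41.5, 43.2, 42.6 and 48.2 CPM. All 8 libraries with palmitate were under all 8 without it. The means were 64.0 ± 3.16, 59.0 ± 1.40, 45.4 ± 2.44 and 43.9 ± 2.97 CPM (SD, n = 4). Palmitate lowered Tnfrsf11b to 0.708 times BSA, a log2 fold change of -0.50 (SE 0.051, adjusted p = 1.4e-09), and both agents to 0.685 times BSA, -0.55 (SE 0.051, adjusted p = 1.3e-10). Against IL-1β the difference was -0.38 for palmitate (adjusted p = 4.7e-07) and -0.43 for both agents (adjusted p = 4.2e-08). IL-1β alone gave -0.12 (95% interval -0.22 to -0.01, adjusted p = 0.12), and with upper-quartile normalization this difference passed at -0.16 (adjusted p = 0.021). Adding IL-1β to palmitate gave -0.05 (95% interval -0.15 to 0.06, adjusted p = 0.65). The sum of 8 osteoblast and osteocyte markers was also lower with palmitate, at 56.8 to 61.0 CPM in the BSA libraries and 36.2 to 39.9 CPM with palmitate, and with IL-1β and with both agents the ranges were 52.7 to 57.6 and 30.3 to 36.8 CPM. Of the 4 tested, 2 fell with palmitate and 2 did not pass, where 17.5% of all genes tested were called lower. Most of that sum was Runx2, an osteoblast transcription factor, which fell with palmitate by 0.68 on the log2 scale (adjusted p = 5.7e-12). Phex also fell, by 1.19 (adjusted p = 9.1e-04), while Alpl gave -0.30 (adjusted p = 0.29) and Dmp1 -0.04 (adjusted p = 0.89), and the bone genes Bglap and Sost were at 0 or 1 count in every library. The part of these markers in the fall of Tnfrsf11b was not tested.

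**Figure D1:**
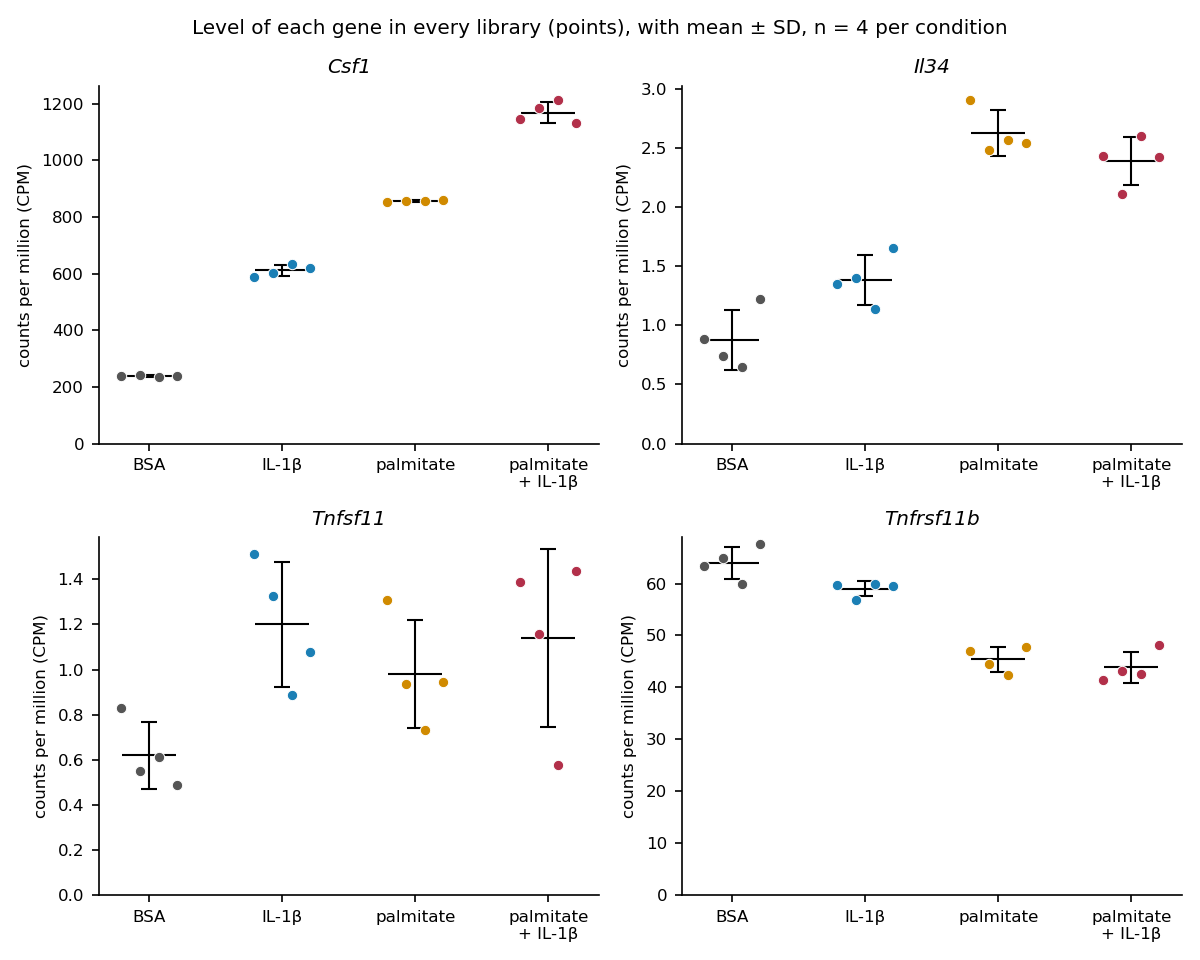
CPM (linear axes from 0) of Csf1, Il34, Tnfsf11 and Tnfrsf11b in the 4 libraries of each condition, drawn as points, with black bars for the mean ± SD. Csf1 climbs in 4 separate steps from 238 to 1169 CPM, Il34 and Tnfrsf11b split by palmitate in opposite directions, and the Tnfsf11 conditions with palmitate overlap BSA.

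Counted over the 4 genes, palmitate against BSA raised 2 and lowered 1, and in that comparison 37.3% of all 16306 genes tested passed, 19.8% higher and 17.5% lower. IL-1β against BSA raised 3 and lowered 0, where 15.1% passed in all, 10.1% higher and 4.97% lower. Without BSA replicate 2 or without IL-1β replicate 6 neither Il34 nor Tnfsf11 passed, which left 1 raised, Csf1. With both agents all 4 changed against BSA, 3 up and 1 down, where 47.3% of genes passed, 24.8% higher and 22.5% lower. Adding palmitate to IL-1β raised 2 and lowered 1, beside 35% of genes in all, 18.9% higher and 16.1% lower. Adding IL-1β to palmitate raised Csf1 alone of the 4, beside 9.81% in all, 5.71% higher and 4.1% lower. Palmitate against IL-1β gave 2 higher and 1 lower, beside 31.6% in all, 16.5% higher and 15.2% lower. These 6 comparisons share libraries and are not separate evidence. Upper-quartile normalization moved the share of calls that were higher from 53.1% to 37.1% with palmitate, from 67.1% to 43.5% with IL-1β and from 52.4% to 38.7% with both agents, while each of the 4 genes kept its direction.

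**Figure D2:**
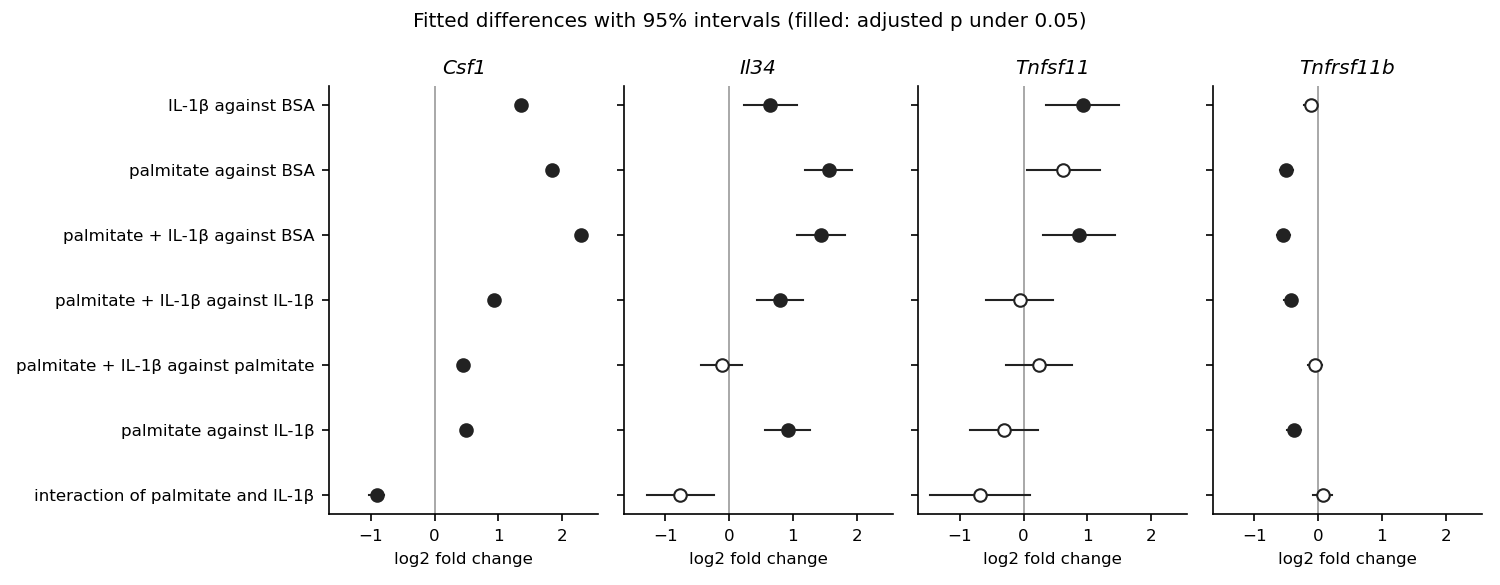
Fitted log2 fold changes (horizontal axis) of the 4 genes for the 6 comparisons of conditions and the interaction, with 95% intervals as lines and filled points where the adjusted p was under 0.05. The Csf1 intervals stay clear of 0 throughout, while those of Tnfsf11 are wide and 2 of its 7 points are filled.

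The interaction term asks whether the agents together gave more or less than the product of their separate folds. Of all genes tested 1.99% passed, 0.159% higher and 1.83% lower. Csf1 was the 1 of the 4 genes that passed, with a term of -0.91 (SE 0.054, adjusted p = 1.2e-13), the 11th smallest p of the table. Il34 gave -0.77 (95% interval -1.29 to -0.25) and Tnfsf11 gave -0.69 (95% interval -1.46 to 0.09), neither of which passed (adjusted p = 0.16 and 0.58). For Il34 the term passed without BSA replicate 4, at -0.96 (adjusted p = 0.048). Tnfrsf11b gave 0.07 (95% interval -0.08 to 0.22, adjusted p = 0.83).

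The same question was put on the CPM scale after the values had been seen, as a description. IL-1β added 373 CPM of Csf1 and palmitate added 619 CPM, which sum to 992 CPM, and both agents together added 931 CPM. The measured gain was thus 61.1 CPM under the sum, with an SE of 21.3 CPM for that difference. Multiplying the separate folds would have put Csf1 at 2200 CPM and adding the changes at 1230 CPM, against 1169 CPM measured. For Il34 the measured 2.40 CPM stood under the added 3.14 CPM, with an SE of 0.216 CPM for the difference of -0.745 CPM. For Tnfsf11 the measured 1.14 CPM stood under the added 1.56 CPM with an SE of 0.279 CPM for the difference. Tnfrsf11b was measured at 43.9 CPM, between the BSA mean and the added level of 40.4 CPM, with an SE of 2.59 CPM for its excess of 3.41 CPM.

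**Figure D3:**
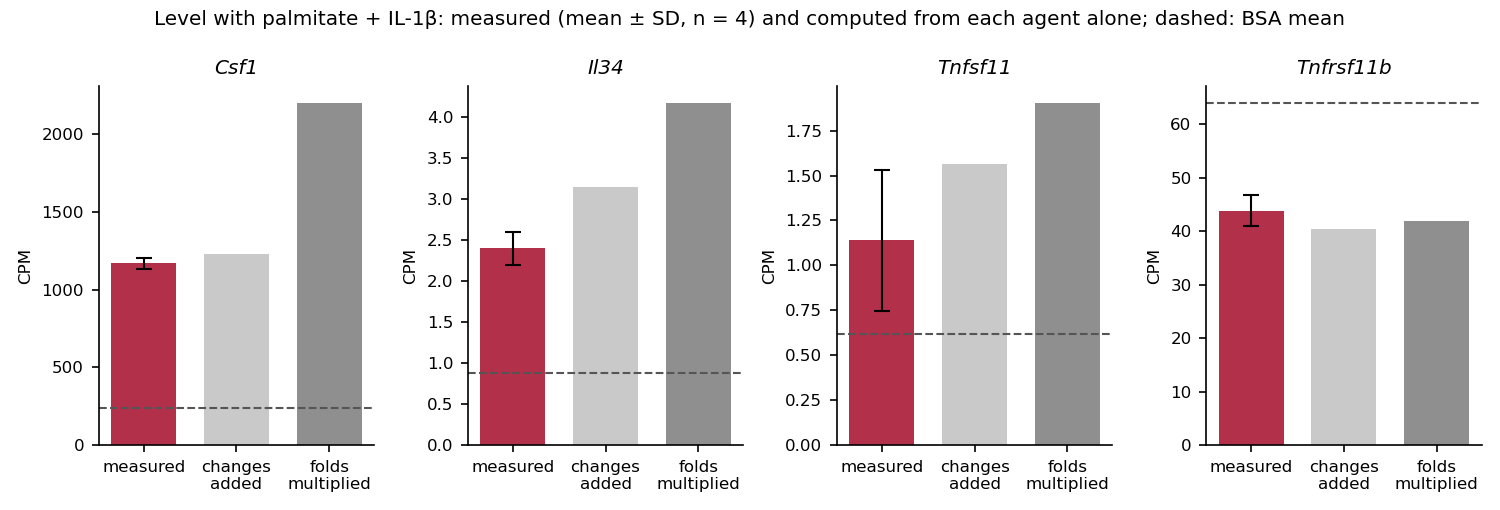
CPM with palmitate + IL-1β for each gene as measured (red bar, mean ± SD, n = 4) and as computed by adding the changes (light grey) or multiplying the folds (dark grey) of each agent alone, with the BSA mean dashed and all axes from 0. Csf1 stands near the added level of 1230 CPM and far from the multiplied level of 2200 CPM.

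Ratios between the genes were taken within each library, where library size does not enter. Tnfsf11 had 1.31, 0.845, 1.02 and 0.724 counts per 100 counts of Tnfrsf11b in the BSA libraries. The ratio was 2.53, 2.33, 1.48 and 1.81 with IL-1β, 2.79, 2.11, 1.73 and 1.98 with palmitate, and 3.35, 2.68, 1.36 and 2.98 with both agents. Every treated library was above every BSA library, the closest being replicate 15 with both agents. The means were 0.973 ± 0.253, 2.04 ± 0.482, 2.15 ± 0.455 and 2.59 ± 0.866 (SD, n = 4). Against BSA the mean log2 ratio was higher by 1.05 with IL-1β (2.07-fold), 1.14 with palmitate (2.21-fold) and 1.35 with both (2.55-fold). Each gave p = 0.0286 in a two-sided exact permutation test, the smallest that 4 against 4 libraries can give. Adjusted over the 6 pairs of conditions this was 0.0571, which missed the threshold. With p at its smallest, the adjusted value was set by how many of the 6 pairs reached it, not by the size of the shift. The treated conditions overlapped, with differences of 0.30 (SE 0.336), 0.21 (SE 0.321) and 0.09 (SE 0.227) between both agents and IL-1β, both agents and palmitate, and palmitate and IL-1β, and exact permutation p-values of 0.4 to 0.743. Of the genes in the ratio, the change against BSA that passed was that of Tnfsf11 with IL-1β, that of Tnfrsf11b with palmitate and that of each gene with both agents. Compared directly, palmitate and IL-1β differed for Tnfrsf11b, as given above, while the difference for Tnfsf11 did not pass.

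The Csf1r ligands shifted towards Csf1 with IL-1β. Il34 had 0.367 ± 0.105 counts per 100 counts of Csf1 with BSA, 0.227 ± 0.0363 with IL-1β, 0.307 ± 0.0232 with palmitate and 0.205 ± 0.0176 with both (SD, n = 4). The log2 ratio fell by 0.68 with IL-1β and by 0.82 with both agents against BSA, fell by 0.58 when IL-1β was added to palmitate, and was 0.43 higher with palmitate than with IL-1β. In each of these 4 pairs the libraries did not overlap (exact permutation p = 0.0286, adjusted p = 0.0429 over 6 pairs). This is the same unadjusted p as for the ratio of Tnfsf11 to Tnfrsf11b against BSA. The adjusted value passed here only because more pairs reached that p, so pass and miss do not rank the ratios. Palmitate against BSA gave -0.24 (SE 0.198) and both agents against IL-1β -0.15 (SE 0.136), with overlapping libraries and an exact permutation p of 0.286 for each. Each of the 16 libraries was left out in turn. Most results for these 4 pairs, 37 in all, then no longer passed (adjusted p = 0.0571 to 0.0857 by the same exact permutation test). Their direction held in all. Part of these losses came from the adjustment alone, since IL-1β against BSA kept its difference of -0.68 without any 1 of the palmitate libraries and still went to 0.0571.

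**Figure D4:**
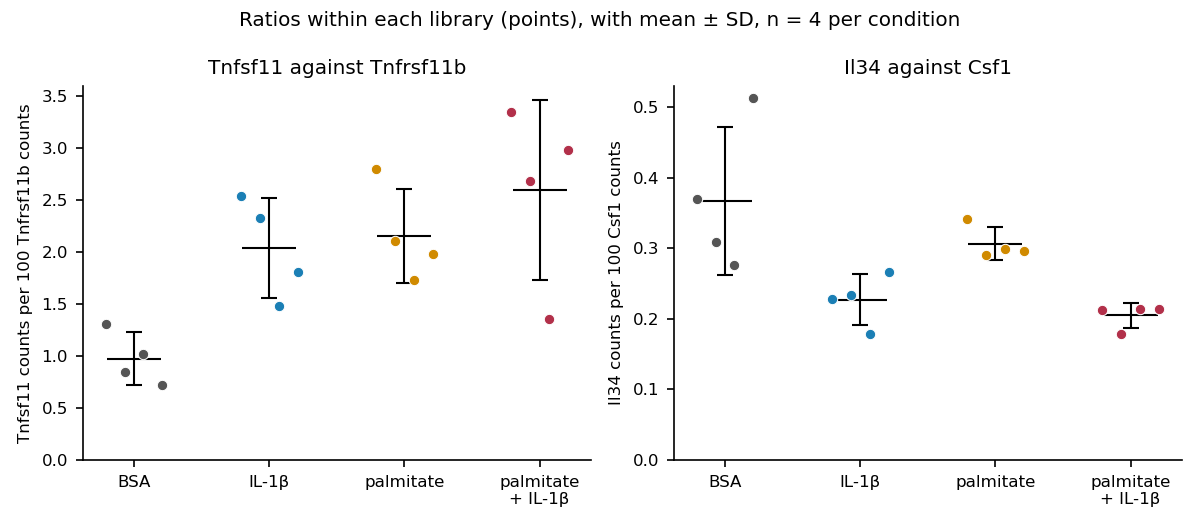
Counts of Tnfsf11 per 100 counts of Tnfrsf11b (left) and of Il34 per 100 counts of Csf1 (right) in each library, with black bars for the mean ± SD (n = 4) and axes from 0. On the left all treated libraries lie above the highest BSA library at 1.31, and on the right the conditions with IL-1β lie lowest.

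Levels of different genes were compared per length, as TPM (counts per base of annotated exon, scaled to the same total in each library). Csf1 was the most abundant of the 4 at 180 ± 3.96 TPM with BSA and 882 ± 31.8 TPM with both agents, followed by Tnfrsf11b at 94.2 ± 3.21 and 64.5 ± 3.37 TPM (SD, n = 4). Tnfsf11 was at 1.23 ± 0.297 TPM with BSA and 2.26 ± 0.787 TPM with both agents, and Il34 at 1.02 ± 0.267 and 2.79 ± 0.220 TPM, and with BSA this lower pair overlapped. With BSA, which of them had the higher mean depended on the length used. Over all annotated exons Tnfsf11 was at 1.23 and Il34 at 1.02 TPM. By the mean length of coding transcripts they were at 0.713 and 1.295 TPM. With both agents the mean of Il34 was the higher by each length. The Tnfsf11 libraries then lay at 1.13 to 2.81 and those of Il34 at 2.48 to 2.98 TPM over all annotated exons. They lay at 0.650 to 1.60 and 3.11 to 3.77 TPM by the mean length of coding transcripts. The levels themselves also moved, with Tnfrsf11b at 56.1 and Tnfsf11 at 0.713 TPM with BSA by that length. Per length Csf1 exceeded Il34 by 186 ± 46.8 times with BSA, 291 ± 50.3 with IL-1β, 212 ± 15.0 with palmitate and 318 ± 29.8 with both. The decoy exceeded its ligand by 80.3 ± 19.7 times with BSA and by 38.2 ± 9.55, 35.7 ± 6.82 and 32.5 ± 15.1 times with IL-1β, palmitate and both. Tnfrsf11b thus stayed in excess of Tnfsf11 at the RNA level in every library, with a lowest ratio of 22.3.

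Among the receptors and other binding partners of these factors, Lgr4 and Sdc1 fell with each agent, and Csf1r and Tnfrsf11a were near 1 CPM. Csf1r was at 1.45 ± 0.249 CPM with BSA and 1.82 ± 0.0587, 1.25 ± 0.141 and 1.47 ± 0.266 CPM with IL-1β, palmitate and both (SD, n = 4), with no call against BSA. Tnfrsf11a, the RANK gene, was at 0.790 ± 0.101 CPM with BSA and 1.16 ± 0.190 CPM with palmitate, a rise of 0.56 (adjusted p = 0.043) that did not pass with DESeq2 (adjusted p = 0.091) or upper-quartile normalization (adjusted p = 0.073). Lgr4, a receptor of R-spondins that also binds RANKL, fell from 58.3 ± 1.63 CPM with BSA to 45.4 ± 2.90 with IL-1β, 28.6 ± 0.494 with palmitate and 24.6 ± 2.96 CPM with both. Its log2 fold changes were -0.36 with IL-1β (adjusted p = 3.6e-05), -1.03 with palmitate (adjusted p = 3.8e-15) and -1.24 with both (adjusted p = 3.0e-17). Sdc1 and Ptprz1 encode cell surface partners of Il34. Sdc1 fell by 0.41 with palmitate (adjusted p = 5.8e-09) and by 0.17 with IL-1β (adjusted p = 0.01), and Ptprz1 gave -0.12 and 0.14, neither of which passed. Tnfsf10 (TRAIL), another ligand of OPG, had at most 5 counts and was not tested. In all, 5 of 6 were tested. Palmitate raised 1 and lowered 2, IL-1β raised 0 and lowered 2, and both agents raised 0 and lowered 2, with medians of -0.19, 0.14 and -0.06 beside medians of about 0 over all genes. Over all genes 37.3%, 15.1% and 47.3% passed in these comparisons, so the 2 of 5 called with both agents were near the background.

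Other stromal factors known to favour osteoclasts were listed as 15 genes, 10 of which were tested. Palmitate raised 8 and lowered 1 of them, IL-1β raised 6 and lowered 1, and both agents raised 8 and lowered 1. The medians were 0.71, 0.33 and 0.99 on the log2 scale, beside -0.003, -0.005 and 0.002 over all genes, of which 19.8%, 10.1% and 24.8% were called higher. Like the other pathway lists, this one was chosen with earlier results of these data known, so its counts beside these shares are description only. Lif, a cytokine of the gp130 family, stood at 3.48 ± 0.372, 9.70 ± 1.38, 25.7 ± 1.60 and 28.6 ± 2.12 CPM in the order BSA, IL-1β, palmitate and both (SD, n = 4), with rises of 1.49 and 2.89 for the single agents (adjusted p = 1.1e-12 and 6.1e-22). Its interaction term was -1.34 (adjusted p = 5.9e-09). Il6, of the same family, rose by 4.19 with palmitate (adjusted p = 1.1e-19) and by 1.06 with IL-1β (adjusted p = 0.0023). Ccl2, which draws monocytes, had the list's lowest interaction term at -2.31 (adjusted p = 4.1e-07), after rises of 4.08 with palmitate and 2.49 with IL-1β. Ptgs2 (COX-2) and Ptges make prostaglandin E2. Ptgs2 rose more with IL-1β, by 1.09 (adjusted p = 2.9e-17), than with palmitate, by 0.66 (adjusted p = 1.3e-12), and palmitate stood below IL-1β by 0.43 when the agents were compared (adjusted p = 2.5e-08). Ptges rose by 1.23 with palmitate (adjusted p = 3.7e-18) and by 0.31 with IL-1β (adjusted p = 1.9e-04). Wnt5a fell with each agent, by 0.61 with palmitate (adjusted p = 1.6e-13) and by 0.14 with IL-1β (adjusted p = 0.018). The interaction passed for 3 of the 10, Lif, Ccl2 and Cxcl12, all below 0. Over all genes 1.99% passed in the interaction, 0.159% higher and 1.83% lower, so most calls of the whole table were below 0 too.

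Factors known to restrain osteoclasts were listed as 10 genes, of which 7 were tested. Palmitate raised 0 and lowered 4, IL-1β raised 1, Ephb4, by 0.14 (adjusted p = 0.03) and lowered 0, and both agents raised 0 and lowered 4. The medians were -0.14, 0.03 and -0.19, beside -0.003, -0.005 and 0.002 over all genes. Over all genes 17.5% were called lower with palmitate, 10.1% higher with IL-1β and 22.5% lower with both agents, so the 1 of 7 with IL-1β was near the background. Wnt4 fell from 3.35 ± 0.330 CPM with BSA to 1.16 ± 0.284 CPM with palmitate, a change of -1.43 (adjusted p = 1.4e-07), and stood at 2.66 ± 0.536 and 1.06 ± 0.248 CPM with IL-1β and both (SD, n = 4). Wnt16 was lower with palmitate by a fitted -2.41 (adjusted p = 8.9e-05), from 11 to 23 counts per library with BSA to 1 to 7 counts with palmitate. The other falls with palmitate were Sfrp1 by 0.35 (adjusted p = 0.0012) and Sema3a by 0.14 (adjusted p = 0.012). Csf2 (GM-CSF), named here after its values were seen, was under the filter, at 0 counts in the BSA libraries, 0 to 2 with IL-1β, 4 to 33 with palmitate and 5 to 12 with both agents.

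Receptors through which other signals are known to reach Tnfsf11 in stromal cells were listed as 12 genes, all tested. Palmitate raised 8 and lowered 3, IL-1β raised 6 and lowered 2, and both agents raised 7 and lowered 3, with medians of 0.34, 0.15 and 0.33 beside -0.003, -0.005 and 0.002 over all genes. The shares over all genes were 19.8% higher and 17.5% lower with palmitate, 10.1% and 4.97% with IL-1β, and 24.8% and 22.5% with both agents, so the 3 of 12 lowered by palmitate and by both agents were near the background. Osmr, the oncostatin M receptor, rose most with palmitate. It went from 31.3 ± 1.66 CPM with BSA to 47.6 ± 4.22, 112 ± 3.39 and 116 ± 7.59 CPM with IL-1β, palmitate and both (SD, n = 4), a rise of 1.83 with palmitate (adjusted p = 1.9e-22), and its interaction of -0.55 passed (adjusted p = 1.4e-05). Lifr rose by 1.21 with palmitate (adjusted p = 3.3e-15) and Ptger2, a prostaglandin E2 receptor counted 2 to 62 times, by 1.55 (adjusted p = 0.0026). Ptger2 also rose with IL-1β, by 1.34 (adjusted p = 0.03), which missed with only the 8 libraries compared (adjusted p = 0.066). The receptors of the bone hormones fell with palmitate, Pth1r by 0.96 (adjusted p = 2.5e-13) and Vdr by 0.52 (adjusted p = 5.1e-05), as did Il11ra1 by 0.53 (adjusted p = 1.0e-08).

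**Figure D5:**
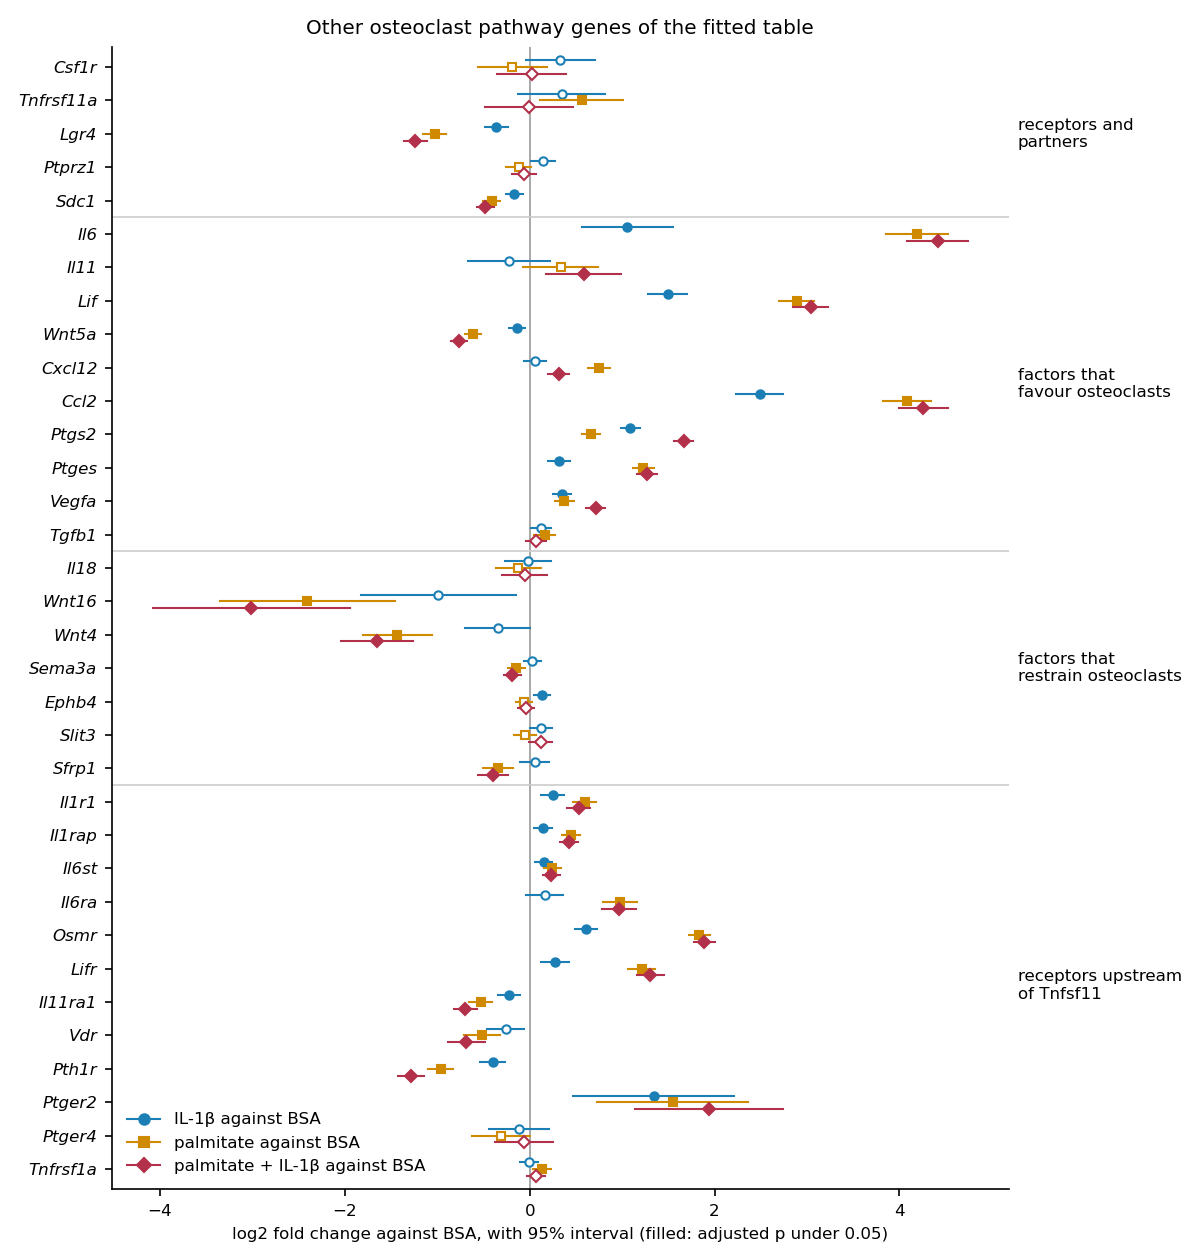
Log2 fold changes against BSA (horizontal axis) with 95% intervals for the tested genes of the 4 lists, with IL-1β as circles, palmitate as squares and both agents as diamonds, filled where the adjusted p was under 0.05. Among the factors that favour osteoclasts most filled points lie right of 0, with Il6 and Ccl2 past 4 for palmitate, and among those that restrain them the filled palmitate points lie left. The lists were chosen with earlier results of these data known.

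The genes whose pattern was most like each factor were taken by Pearson's r of log2 CPM over the 16 libraries, which share the 4 conditions, so that r is mostly set by the order of the condition means. For Csf1 they were Ampd3 (r = 0.997), Cxcl1 (0.997), Slc7a11 (0.996), Bid (0.995) and Ets2 (0.995). For Il34 they were Fam98a, Micall2, Gfra2, Ccl9 and Tgtp1, at 0.965 to 0.969. For Tnfrsf11b they were Tcf7l2 (0.983), Pax3 (0.982), Ak5 (0.976), Maf (0.973) and Glt8d2 (0.972). Tnfsf11 had no gene above 0.879, the value for Znf41-ps, and at its counts such values are no finding.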

How the data were processed

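The deposited table holds raw counts per gene, neither filtered nor normalized. Per the submitters' processing notes and the study's methods, the authors trimmed reads (Trimmomatic 0.39), aligned them (STAR 2.7.10a, GRCm39) and counted them (HTSeq 2.0.9) on a GENCODE annotation. Reads placed more than once were not counted. A stranded kit for total RNA is named in the labels and oligo(dT) priming in the methods, and the strand setting is not given in the sources used here. Summary entries that name no gene (5, at 18.3 to 21.4% of a library) stayed out, and 0 columns were unmapped. Replicates of a condition differed beyond sampling noise (24 pairs, chi-square per degree of freedom 2.66 to 19.9), so none was merged.

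Counts were tested with edgeR 4.0.16 (R 4.3.3; TMM, factors 0.970 to 1.04; filterByExpr with a minimum count of 10 and total of 15; robust glmQLFit and glmQLFTest) in 1 fit of 16 libraries (1 mean per condition, no covariates), Benjamini-Hochberg over 16306 genes, called at an adjusted p under 0.05. The procedure was tested on simulated data. Ratios used 0.5 added to each count and a two-sided exact permutation test. Lengths came from GENCODE on GRCm39 for 56323 genes. RefSeq's promoter table matched 2 of the 4 genes. Alternatives were DESeq2 1.42.0, other size factors and filters, no robust estimation, only the 8 libraries compared, and leaving out each library.

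Named were the 4 genes, the receptors and binding partners, genes of the 4 pathway lists called with an absolute log2 fold change of at least 1 with palmitate, IL-1β or in the interaction, and the 5 genes of highest r per factor among those with an average log2 CPM of at least 1 (prior count 2). A few further list and marker genes were named for their values. The 4 genes and the lists were chosen with earlier results of these data known.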

Additional observations from a re-analysis of the deposited data

Results flagged for a closer look

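Tnfrsf11b in IL-1β replicate 6 stood apart from the other IL-1β libraries, at 56.9 CPM, with a gap to its nearest neighbour of 0.872 of the range of the 4 libraries. It was the 1 of 16 groups screened (4 genes in 4 conditions), and chance alone flags about 1 in 20. The effect of palmitate on Csf1 differed with and without IL-1β, by the interaction term of -0.91 on the log2 scale, where palmitate raised Csf1 by 1.85 without IL-1β and by 0.94 with it.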

How the results depend on the processing

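No paired analysis was possible because the library numbers 1 to 16 are not shared between conditions. Of 192 results for the 4 genes under other tools, normalizations, filters and fits, 189 kept their direction and their side of the threshold. The others kept their direction and were Tnfrsf11b with IL-1β, which passed under upper-quartile normalization at -0.16 (adjusted p = 0.021), and Il34 with IL-1β, which missed without a filter at 0.63 (adjusted p = 0.068) and with only 8 libraries at 0.65 (adjusted p = 0.082). The cause was not tested. Leaving out each library changed 12 of 448 calls of single genes, 38 of 96 of the ratio of Il34 to Csf1 and 0 of 96 of the ratio of Tnfsf11 to Tnfrsf11b, none of which passed. It turned the sign of no called value, but that of Tnfsf11 between both agents and IL-1β (-0.06 to 0.066 and 0.157 without IL-1β replicate 5 and palmitate + IL-1β replicate 15) and of the ratio of Tnfsf11 to Tnfrsf11b between palmitate and IL-1β (0.09 to -0.054 and -0.044 without IL-1β replicate 7 and palmitate replicate 9). The log2 ranges where calls changed were 0.54 to 0.84 for Il34 and 0.80 to 1.11 for Tnfsf11 with IL-1β, 0.50 to 0.80 for Tnfsf11 with palmitate, 0.73 to 1.08 for Tnfsf11 with both agents, and -0.96 to -0.66 for the Il34 interaction. Il34 with IL-1β missed without BSA replicate 1, 2 or 3, or IL-1β replicate 6 or 8. For the ratio of Il34 to Csf1 they were -0.79 to -0.50 (IL-1β against BSA), -0.94 to -0.65 (both against BSA), -0.61 to -0.52 (both against palmitate), 0.33 to 0.52 (palmitate against IL-1β) and -0.26 to -0.066 (both against IL-1β). The depth limits Tnfsf11 and Il34, counted at most 85 and 226 times per library.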
